A study of Arabidopsis thaliana with 34 samples.

Results

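The genes described here are 8 regulators of flowering in Arabidopsis thaliana, namely 6 members of the FLC clade of MADS-box repressors and 2 integrators. The repressors are FLC (AT5G10140), FLM (AT1G77080, also MAF1), MAF2 (AT5G65050), MAF3 (AT5G65060), MAF4 (AT5G65070) and MAF5 (AT5G65080), and the integrators FT (AT1G65480) and SOC1 (AT2G45660). They were chosen by gene identifier because FLC is the classic target of VRN2, and all 8 were present among the 18480 genes of the seedling mRNA table and the 21884 genes of the rosette mRNA table. VRN2 is a subunit of the Polycomb repressive complex 2, which places the repressive histone mark H3K27me3, and the study as a whole concerned VRN2, light and the growth-promoting PIF transcription factors. The seedling mRNA groups were Col-0, the VRN2 mutant vrn2-5, the mutant prt6-1, which lacks the N-degron ubiquitin ligase PRT6 that targets VRN2 protein for breakdown, and the double mutant vrn2-5 prt6-1, with 3 libraries each. The rosette mRNA groups were pif4-2 and vrn2-5 pif4-2, with 2 libraries each, so that both groups carried the PIF4 mutation and no wild-type rosette was compared. H3K27me3 was profiled in whole seedlings of Col-0 and vrn2-5 in 3 replicates. VRN2 binding was profiled in 3 replicates of vrn2-5 seedlings that carried a VRN2-YFP fusion under the VRN2 promoter. The sources used here do not give plant age, light, temperature or any cold treatment.

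FLC binds and represses FT and SOC1 and thereby delays flowering. In vernalization, prolonged cold leads Polycomb complex 2 with VRN2 to cover FLC with H3K27me3, which keeps it silent after the plant returns to warmth. Col-0 carries an inactive allele of the FLC activator FRIGIDA, so its FLC is low even without cold. FLM and MAF2 to MAF5 are FLC relatives that act as flowering repressors under various conditions, and MAF2 to MAF5 stand in tandem, while FT encodes the mobile florigen made in leaf veins and SOC1 a MADS-box activator in the shoot tip.

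Seedling libraries held 1208836 to 27853214 recovered reads in genes, with 6 deep and 6 shallow libraries of which Col-0 and vrn2-5 had 1 deep library each and the other genotypes 2 each. A normalized read is a read divided by the size factor of its library, and 1 read was worth 0.205 to 0.609 normalized reads in the deep libraries and 3.35 to 5.00 in the shallow ones. Rosette libraries held 15912781 to 26322823 reads. VRN2 itself had 116, 163 and 135 normalized reads in the Col-0 libraries against 50.1, 45.0 and 50.3 in those of vrn2-5, with 118 to 135 in prt6-1 and 36.7 to 76.8 in vrn2-5 prt6-1. The libraries labelled with the mutation were thus the lowest, yet the log2 difference of -1.41 (SE 0.24) between vrn2-5 and Col-0 did not pass the threshold of 0.05 on the p-value adjusted over all genes (adjusted p = 0.293, limma). Deviations of the replicate 3 seedling libraries from their genotype means correlated with each other across genes (r of 0.288 to 0.560). Pairs of different replicate number ranged from -0.45, between a deep and a shallow library, to 0.44, between deep libraries of prt6-1 and vrn2-5 prt6-1. In rosettes, replicate 2 of vrn2-5 pif4-2 stood apart, with reads in 17312 genes against 19394 to 21189 in the other libraries. In rosettes VRN2 was at 18.3 and 18.6 CPM (counts over the TMM-adjusted library size) in pif4-2 and 6.39 and 6.17 in vrn2-5 pif4-2. The floral organ gene PI was at 84.0 to 212 normalized reads in prt6-1 and 70.1 to 135 in vrn2-5 prt6-1 against 0 to 69.9 in Col-0 and vrn2-5, and its part in the differences between genotypes was not tested. The 5 other floral organ markers and all 7 seed maturation markers were absent from the seedling table. Whether the replicates are separate plantings is not stated in the labels, so p-values reflect only how far these libraries vary, and that variation may be technical.

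FLC transcript was lowest in Col-0, although no FLC difference passed the test over all genes. The 3 Col-0 libraries held 82.5, 56.6 and 102 normalized reads of FLC, and those of vrn2-5 held 156, 135 and 124. The prt6-1 libraries held 126, 114 and 125, and the double mutant 151, 119 and 205. Every mutant library exceeded every Col-0 library, while the 3 mutant genotypes overlapped each other. The mean was 80.3 ± 22.7 (SD, n = 3) in Col-0, 138 ± 16.4 in vrn2-5, 122 ± 6.59 in prt6-1 and 158 ± 43.6 in vrn2-5 prt6-1. In bulk tissue, more FLC-expressing cells and more FLC RNA per cell cannot be told apart.

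On the log2(normalized reads + 5) scale, FLC was 0.78 (SE 0.24) higher in vrn2-5 than in Col-0, with an unadjusted limma p of 0.00746 that ranked 58 of 16820 genes and an adjusted p of 1. It was 0.60 (SE 0.24) higher in prt6-1 than in Col-0 (adjusted p = 1, limma). It was 0.94 (SE 0.24) higher in vrn2-5 prt6-1 than in Col-0 (adjusted p = 0.401, limma). These 3 comparisons share the Col-0 libraries, so they are not separate evidence. Within the prt6-1 background, which does not use Col-0, FLC was 0.34 (SE 0.24) higher in vrn2-5 prt6-1 than in prt6-1, the groups overlapped and the adjusted p was 1 (limma). Over both PRT6 backgrounds the vrn2-5 difference was 0.56 (SE 0.17), with an unadjusted p of 0.00696 and an adjusted p of 1.00 (limma), and an exact permutation test of FLC alone within backgrounds gave p = 0.015, two-sided, over 400 arrangements. For vrn2-5 against Col-0 alone the exact permutation p was 0.1, the smallest that 3 libraries against 3 allow. The difference between the vrn2-5 effects in the PRT6 and prt6-1 backgrounds was -0.44 (SE 0.34, adjusted p = 1.00, limma).

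The depth behind these FLC values was uneven. The shallow libraries held 16 to 37 FLC reads and the deep ones 205 to 759. Counting error alone gave a 95% exact Poisson interval of 32.4 to 92 normalized reads for the lowest Col-0 library and 87.3 to 171 for the lowest vrn2-5 library, which overlap. The single deep libraries of these genotypes were replicate 3 of Col-0 and replicate 1 of vrn2-5. Their intervals were apart, at 91.5 to 113 in Col-0 and 144 to 170 in vrn2-5, but genotype and replicate differ together in this pair. Col-0 and vrn2-5 each had 1 deep library, so a term for depth class could not move the vrn2-5 difference. With that term, an alternative chosen after the data were seen, the vrn2-5 difference was 0.78 (SE 0.21). Without replicate 3 of all genotypes it was 1.03 (SE 0.24, adjusted p = 0.462, limma), while the difference between vrn2-5 prt6-1 and prt6-1 was 0.16 (SE 0.24) and the interaction -0.88 (SE 0.35, unadjusted p = 0.0369, adjusted p = 0.966, limma). FLC also overlaps a long non-coding RNA in the RefSeq annotation, and since strand-specific counting is not stated, sense and antisense reads cannot be told apart.

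**Figure D1:**
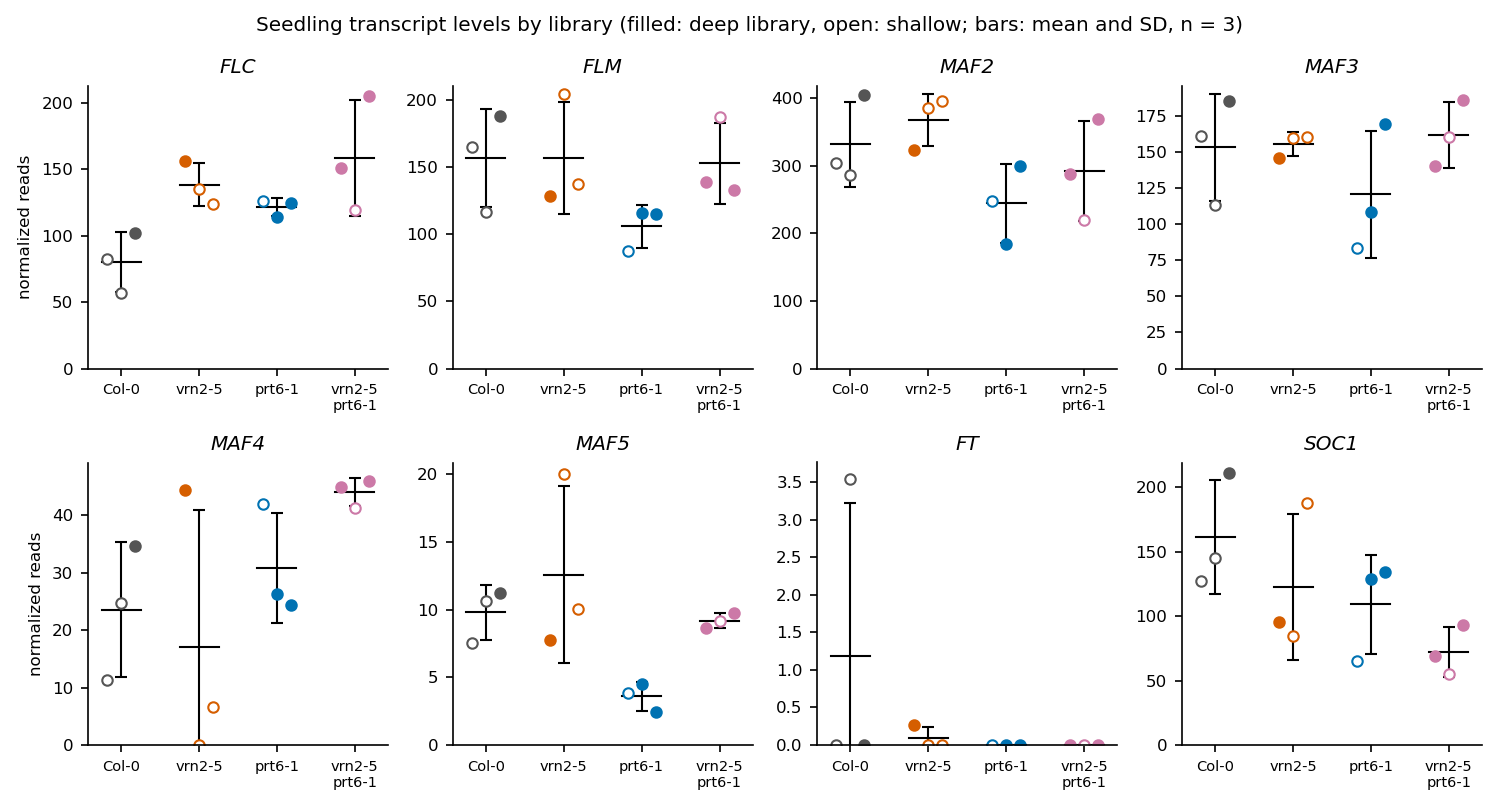
Normalized reads (y axis, from 0) of each of the 8 genes in the 12 seedling libraries by genotype (x axis), with filled points for deep libraries, open points for shallow ones and bars for the mean and SD of 3 libraries. All 9 mutant libraries lie above the 3 Col-0 libraries for FLC (114 to 205 against 56.6 to 102), and SOC1 is lowest in vrn2-5 prt6-1 (55.01 to 92.8).

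FLM, the clade member known from temperature-dependent splicing in flowering, had the same mean in Col-0 and vrn2-5, 157 normalized reads, and a mean of 106 in prt6-1. Col-0 libraries held 165, 117 and 188 normalized reads of FLM, vrn2-5 libraries 129, 205 and 137, prt6-1 libraries 87.7, 116 and 115, and double mutant libraries 139, 188 and 133. The prt6-1 libraries lay below every library of the 3 other genotypes, though barely below Col-0. The highest prt6-1 library held 115.8 normalized reads and the lowest Col-0 library 116.8, the latter on only 33 reads. Both FLM differences given next share the prt6-1 libraries. FLM differed by -0.52 (SE 0.24, adjusted p = 1, limma) between prt6-1 and Col-0 and by 0.50 (SE 0.24, adjusted p = 1, limma) between vrn2-5 prt6-1 and prt6-1, and neither passed the test.

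MAF2, a repressor known to prevent flowering after short cold spells, was the most abundant clade member in reads, with means of 332 ± 63.4, 368 ± 39.1, 244 ± 57.9 and 292 ± 74.4 normalized reads (SD, n = 3) in Col-0, vrn2-5, prt6-1 and vrn2-5 prt6-1. MAF3 had means of 153 ± 36.9, 156 ± 8.22, 121 ± 44.3 and 162 ± 22.9 in the same order. For both genes the libraries of all pairs of genotypes compared overlapped. Their vrn2-5 differences from Col-0 were 0.16 (SE 0.23) for MAF2 and 0.05 (SE 0.25) for MAF3, within the error.

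MAF4 and MAF5 were sparse. Col-0 libraries held 11.2, 24.8 and 34.6 normalized reads of MAF4, vrn2-5 libraries 44.5, 0 and 6.70, prt6-1 libraries 42.0, 26.3 and 24.4, and double mutant libraries 45.0, 41.3 and 46.0. The shallow libraries held only 0 to 11 MAF4 reads, and the single deep library of vrn2-5, with 167 reads, lay within the range of the double mutant. The largest difference, 1.78 (SE 0.68) between vrn2-5 prt6-1 and vrn2-5, had its low values in the 2 shallow vrn2-5 libraries and did not pass the test (adjusted p = 0.719, limma). Only between vrn2-5 prt6-1 and Col-0 did the MAF4 libraries not overlap among the comparisons made (0.87, SE 0.68, adjusted p = 1.00, limma). MAF5 averaged under 10 normalized reads and was not tested. Col-0 libraries held 7.50, 10.6 and 11.3 normalized reads of MAF5, vrn2-5 libraries 7.72, 19.99 and 10.1, prt6-1 libraries 3.81, 4.52 and 2.44, and double mutant libraries 8.64, 9.17 and 9.74. MAF5 was thus lowest in the 3 prt6-1 libraries, on 1, 22 and 4 reads. Fitted with no filter, its difference was -0.78 between prt6-1 and Col-0 and 0.73 between vrn2-5 prt6-1 and prt6-1 (adjusted p = 1 for both, limma). Because MAF2 to MAF5 are close tandem relatives and the treatment of shared reads is not stated, reads may be split among them.

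FT was at the limit of detection in seedlings. It had 1 read in Col-0 replicate 2, 1 read in vrn2-5 replicate 1 and 0 in the 10 other libraries, so it was not tested. SOC1 was highest in Col-0 by its mean. Whether FLC had a part in the SOC1 levels was not tested. Col-0 libraries held 127, 145 and 211 normalized reads of SOC1, and vrn2-5 libraries 95.1, 84.9 and 188. The prt6-1 libraries held 64.8, 129 and 134, and the double mutant 68.9, 55.01 and 92.8. The double mutant lay below all Col-0 libraries, while the single mutants overlapped Col-0, and replicate 3 was highest in every genotype. SOC1 differed by -1.10 (SE 0.36) between vrn2-5 prt6-1 and Col-0, with an unadjusted limma p of 0.0109 and an adjusted p of 0.702. Its differences were -0.44 (SE 0.36) for vrn2-5 against Col-0, -0.58 (SE 0.36) for prt6-1 against Col-0 and -0.53 (SE 0.36) for vrn2-5 prt6-1 against prt6-1, none past the test. Over both PRT6 backgrounds the vrn2-5 difference of SOC1 was -0.48 (SE 0.25, unadjusted p = 0.0852, limma). With replicate 3 as a term, chosen after the data were seen, its SE was 0.16 and its unadjusted p 0.0146 (adjusted p = 0.874, limma). With a replicate block they were 0.17 and 0.0177 (adjusted p = 0.877, limma). Such a drop was not particular to SOC1. Of all 16820 genes, 441 had an unadjusted limma p under 0.05 without these terms, 901 with replicate 3 and 927 with the block.

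Across the 12 libraries the Pearson correlation between FLC and SOC1 on the log2 scale was -0.427 (permutation p = 0.167) and Spearman's rho -0.510 (permutation p = 0.094), a single relation chosen after the values were seen. Without the 2 libraries farthest from the FLC median r was -0.446. Within the 6 deep libraries r was -0.766 (permutation p = 0.0804) and within the 6 shallow ones -0.460 (permutation p = 0.367). Over the 8 libraries of replicates 1 and 2 it was -0.667 (permutation p = 0.0658). The permutation p-values of these correlations come from 100000 random orders of libraries across genotypes. They treat libraries of the same genotype as independent, so they cannot separate a relation between the genes from differences between genotypes. Without the 2 libraries farthest from the FLC median of each subset, r was -0.817 in the deep libraries, 0.135 in the shallow ones and -0.060 in replicates 1 and 2. The value of r in the last 2 subsets thus depended on those libraries. Leaving them out also narrows the range of FLC, which can by itself weaken r. For deviations from the genotype means r was 0.240 (permutation p = 0.451), so the relation did not hold within genotypes.

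**Figure D2:**
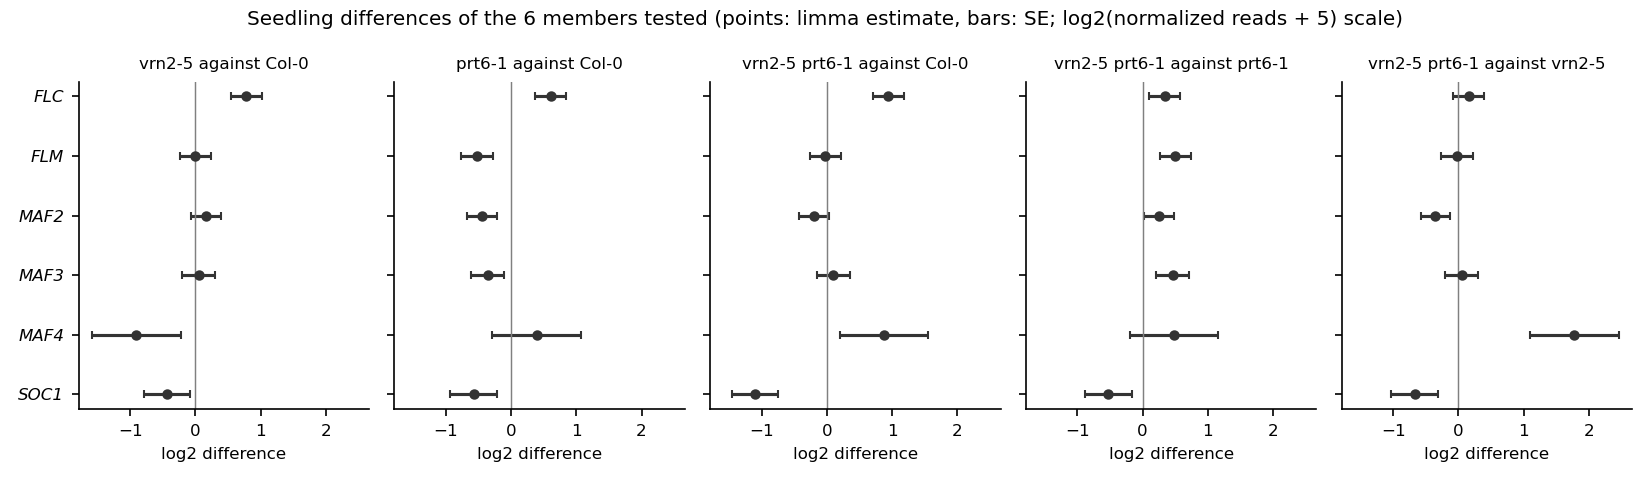
Log2 differences (x axis, points) with their standard errors (bars) from limma for the 6 genes tested (y axis) in each of 5 pairs of seedling genotypes, on the log2(normalized reads + 5) scale. FLC lies between 0.16 and 0.94 and SOC1 between -1.10 and -0.44 in pairs that share libraries, and no point passes the adjusted threshold.

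Of the 8 genes, 6 passed the filter of a mean of at least 10 normalized reads, and none was called in any seedling comparison by limma, edgeR or DESeq2. In vrn2-5 against Col-0, 0 of 6 were called against a background of 0.0238% of all genes, 1 (FLC) had an unadjusted p under 0.05 against 2.85%, and 1 (FLC) had groups that did not overlap against 5.50%. In prt6-1 against Col-0, 0 of 6 were called (background 0.184%), 1 (FLC) had an unadjusted p under 0.05 (4.14%) and 2 (FLC and FLM) did not overlap (9.55%). In vrn2-5 prt6-1 against Col-0, 0 of 6 were called (0.208%), 2 (FLC and SOC1) had an unadjusted p under 0.05 (5.18%) and 3 (FLC, MAF4 and SOC1) did not overlap (9.29%). In vrn2-5 prt6-1 against prt6-1, 0 of 6 were called (0%), 0 had an unadjusted p under 0.05 (1.14%) and 1 (FLM) did not overlap (6.06%). In vrn2-5 prt6-1 against vrn2-5, 0 of 6 were called (0.208%), 1 (MAF4) had an unadjusted p under 0.05 (6.18%) and 0 did not overlap (11%). Over both PRT6 backgrounds, 0 of 6 were called (0%) and 1 (FLC) had an unadjusted p under 0.05 (2.62%). For the interaction, 0 of 6 were called (0.00595%) and 0 had an unadjusted p under 0.05 (1.34%).

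Per kilobase of the deposited gene length, FLC took a higher place among the 8 genes in the mutants than in Col-0, by the means. That length was 1180 bp for FLC and 1464 bp for MAF3, but 3384 bp for MAF2 and 4480 bp for FLM. The order between genes therefore depends on unlike annotated lengths and is not a measure of transcript number. In Col-0 the order of mean normalized reads per kilobase was MAF3 (105), SOC1 (104), MAF2 (98.0), FLC (68.1), FLM (34.99), MAF4 (14.3), MAF5 (7.98) and FT (1.21). Neighbours from MAF3 to FLC overlapped between libraries, as did MAF4 and MAF5, while FLC and FLM, FLM and MAF4, and MAF5 and FT did not. In each of the 3 mutants FLC stood at the top of this order and overlapped the next gene. It was at 117 in vrn2-5, 103 in prt6-1 and 134 in vrn2-5 prt6-1. In reads not divided by length, MAF2 exceeded FLC in every library.

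Genes upstream and downstream of these 8 were taken from 5 lists of 55 genes: FLC activators, autonomous-pathway repressors of FLC, vernalization and Polycomb factors, photoperiod and FT regulators, and integrator targets. Of the 41 tested in seedlings, 0 passed the limma threshold in any comparison, and 1 in vrn2-5 against Col-0 had an unadjusted p under 0.05, which is 2.44% of the list beside 2.85% of all genes. Such genes, named after their values were seen, were SPL3 in prt6-1 against Col-0 (2.44% beside 4.14%), AGL24 and TEM2 in vrn2-5 prt6-1 against Col-0 (4.88% beside 5.18%), SPL3 in vrn2-5 prt6-1 against prt6-1 (2.44% beside 1.14%) and EFS and AGL24 in vrn2-5 prt6-1 against vrn2-5 (4.88% beside 6.18%). Over both backgrounds they were SPL3 and REF6 (4.88% beside 2.62%), and the interaction had 0 (beside 1.34%). The gene in vrn2-5 against Col-0 was REF6, an H3K27 demethylase. Col-0 libraries held 86.2, 92.1 and 62.9 normalized reads of REF6 and vrn2-5 libraries 30.4, 14.99 and 23.5, with 38.1, 116 and 73.1 in prt6-1 and 70.7, 13.8 and 58.4 in vrn2-5 prt6-1. Col-0 and vrn2-5 did not overlap for REF6 (-1.63, SE 0.52, adjusted p = 1, limma), while vrn2-5 prt6-1 overlapped both prt6-1 and Col-0. The 9 FLC activators had a median difference of -0.02 in vrn2-5 against Col-0 and the 7 autonomous-pathway genes one of -0.16, beside -0.002 for all genes. In rosettes 46 of the 55 genes were tested, 0 passed the edgeR threshold and 1 had an unadjusted p under 0.05, which is 2.17% of the list beside 2.38% of all genes.

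The 5 genes whose log2 levels followed FLC most closely over the 12 libraries were RGL1, which encodes a DELLA repressor of gibberellin response (r = 0.888), AT5G38565 (r = 0.880), CLL1 (r = 0.860), QQS (r = 0.855) and AT5G49560 (r = 0.854), out of 16819 genes. RGL1 averaged 21.4, 34.99, 35.8 and 42.9 normalized reads in Col-0, vrn2-5, prt6-1 and vrn2-5 prt6-1. QQS averaged 15.1 in Col-0 and 255 to 334 in the mutants. Those nearest SOC1 were AT5G20170 (r = 0.935), AT1G13930 (r = 0.893), ATG13 of autophagy (r = 0.888), AT1G13670 (r = 0.880) and AT4G16190 (r = 0.879). These are descriptions over shared libraries, whose depth and replicate 3 they also share.

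In rosettes FLC was nearly silent and SOC1 led. FLC had 1 and 4 reads in pif4-2 and 11 and 0 in vrn2-5 pif4-2 and did not pass the count filter. SOC1 was at 32.5 and 37.5 CPM in pif4-2 and 31.8 and 35.6 in vrn2-5 pif4-2, so the groups overlapped and the edgeR log2 difference was -0.04 (SE 0.25). FT was measurable here, at 1.01 and 1.28 in pif4-2 and 1.04 and 0 in vrn2-5 pif4-2. The library at 0 was the replicate 2 that stood apart, and 3 reads would have been 0.125 CPM in it, so the FT difference of -1.15 (SE 2.00) rested on that library. Per kilobase of deposited gene length, the mean CPM in pif4-2 ran from SOC1 (22.5) through FLM (6.35), MAF2 (6.33), MAF3 (6.12), FT (1.18), MAF4 (0.796) and MAF5 (0.361) to FLC (0.0888). The libraries of FLM, MAF2 and MAF3 overlapped. This order too depends on the lengths, which were 1553 bp for SOC1 and 4480 bp for FLM. Not divided by length, FLM was at 29.0 and 27.9 CPM in pif4-2. The rosette and seedling tables were normalized separately, so levels are compared only within each.

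Among the repressors in rosettes, MAF5 showed the largest difference. It was at 0.307 and 0.579 CPM in pif4-2 and 2.42 and 0.958 in vrn2-5 pif4-2, on 7 to 42 reads. The log2 difference was 1.92 (SE 1.19, adjusted p = 0.945, edgeR). Of the 4 senescent leaf markers, SAG13 was at 73.1 CPM in the library highest in MAF5, MAF4 and FLC, replicate 1 of vrn2-5 pif4-2, against 0.659 to 0.833 in the others, and SAG12 was at 0 except for 0.921 there. ORE1 was at 2.65 and NAP at 13.4 in that library, against 3.95 and 16.0 in replicate 1 of pif4-2. They were at 1.03 and 5.46 in replicate 2 of pif4-2 and at 3.46 and 4.79 in replicate 2 of vrn2-5 pif4-2. The part of these markers in the result was not tested. Leaving out 1 library at a time, the MAF5 difference ranged from 1.096 without replicate 1 of vrn2-5 pif4-2 to 2.44 without replicate 2 of pif4-2. MAF4 was at 0.922 and 1.70 against 2.82 and 1.5 and overlapped. MAF3 was at 9.79 and 8.11 against 10.4 and 18, MAF2 at 23.4 and 19.4 against 25.8 and 28.1, and FLM at 29.0 and 27.9 against 25.9 and 20.04. The edgeR log2 differences of MAF3, MAF2 and FLM were 0.68 (SE 0.38), 0.34 (SE 0.26) and -0.30 (SE 0.26), none past the test. The MAF3 difference was 0.22 without replicate 2 of vrn2-5 pif4-2 and 1.01 without replicate 1.

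Of the 7 genes tested in rosettes, 0 were called against a background of 0% (0 of 18561 genes), and 0 had an unadjusted p under 0.05 against 2.38%. DESeq2 called 7 genes in all and none of the 8. Calls turned on single libraries of vrn2-5 pif4-2. Without replicate 1, FT (-7.77), FLM (-0.51) and MAF3 (1.01) were called among 11464 genes, and without replicate 2 only MAF5 (2.43) among 1825 genes, each with edgeR and a lone sample assumed to vary like the other group. In the authors' deposited table the adjusted p of all 8 genes was 0.987 or higher.

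**Figure D3:**
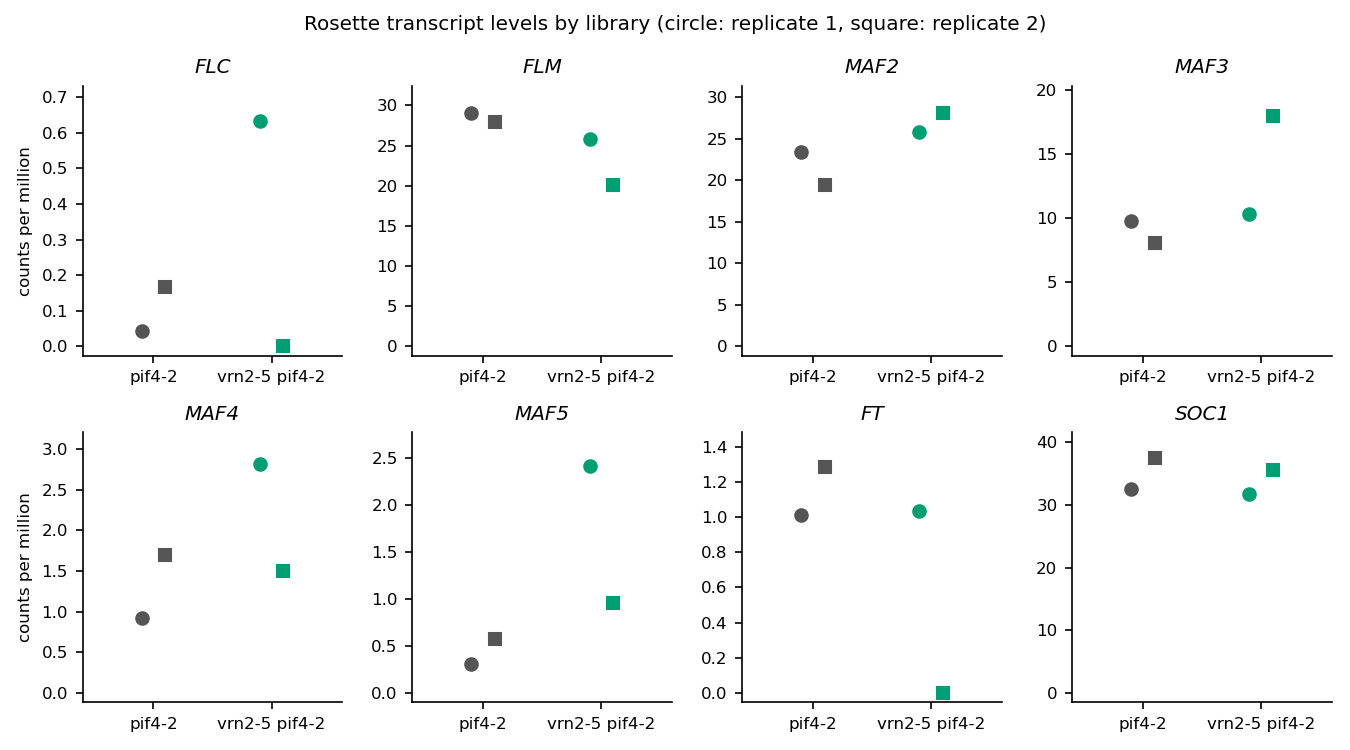
CPM (y axis) of the 8 genes in the 4 rosette libraries, with a circle for replicate 1 and a square for replicate 2 of each genotype (x axis). MAF5 is highest in replicate 1 of vrn2-5 pif4-2, and FLC and FT are at 0 in replicate 2 of vrn2-5 pif4-2.

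H3K27me3 split the 8 genes. A region of the mark lay over the gene body or within 1 kb upstream in all 3 replicate tables at 5 of the 8 genes (FLC, MAF4, MAF5, FT and SOC1), against 21.3% of 21713 genes. FLM, MAF2 and MAF3 had no region in any table. Within the tandem cluster the mark therefore covered MAF4 and MAF5 and neither MAF2 nor MAF3. FLC and SOC1 were densely marked, with regions at the 94.4th to 98.9th and 98.1st to 99.2nd percentile of normalized Col-0 reads per kilobase among all regions, against 59.4 to 79.7 for MAF4 and 72.1 to 77.2 for MAF5. The FLC region spanned 3172401 to 3181400 on chromosome 5 (TAIR10) in replicate 1 and covered the whole gene (3173382 to 3179448). The SOC1 region spanned 18807401 to 18811000 on chromosome 2 in replicates 2 and 3 and was longer in replicate 1, at 18802801 to 18811200. FT lay inside a block of 23800 bp in replicate 1. Region bounds differed between replicates, so the ratios given for a gene do not all cover the same interval. The headers label the compared libraries A and B without saying which is which. A was taken as vrn2-5 and B as Col-0 because the table's name gives the genotypes in that order, and every H3K27me3 direction rests on this reading.

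MAF4 and MAF5 carried less H3K27me3 in vrn2-5, SOC1 carried more, and neither FLC nor FT passed the test. The ratio of normalized reads, vrn2-5 over Col-0, was 0.775, 0.777 and 0.808 at MAF4 and 0.797, 0.785 and 0.793 at MAF5 in replicates 1, 2 and 3. At SOC1 it was 1.095, 1.169 and 1.109, at FLC 1.05, 0.956 and 1.00 and at FT 0.976, 1.03 and 1.04. All 3 replicates were below 1 at MAF4 and MAF5 and above 1 at SOC1, while FLC and FT lay on both sides of 1.

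The mean log2 ratio was -0.35 (SE 0.08, adjusted p = 0.00212, limma) at MAF4, -0.34 (SE 0.06, adjusted p = 0.000921, limma) at MAF5 and 0.17 (SE 0.04, adjusted p = 0.00209, limma) at SOC1. FLC was at 0.00 (SE 0.03, adjusted p = 0.955, limma) and FT at 0.02 (SE 0.03, adjusted p = 0.546, limma). Lower ratios were called at 2 of these 5 genes against a background of 26.3% and a higher one at 1 against 6.70%, so the count of lower ones was near the background. The medians over all 4626 genes were -0.09, -0.05 and -0.05 in the 3 replicates, and MAF4 and MAF5 lay at the 14.9th and 17.96th percentile in replicate 1 and at the 4.43rd to 7.39th in replicates 2 and 3. Centred on the median ratio, the 310 higher and 1218 lower genes became 713 and 573, and all 3 calls kept their direction and passed. Without the pairing of libraries by replicate no gene passed (18 with an unadjusted p under 0.05), so the calls rest on that pairing. In the authors' deposited table, the false discovery rate of each of these 3 genes in the same direction was 0.00221 or less in every replicate. At 0.05 this rate called 63.9%, 26.9% and 24.2% of all regions lower in replicates 1, 2 and 3. It called 10.8%, 25.02% and 11.5% higher. By the same rate FLC was higher in replicate 1 (0.0045) and lower in replicate 2 (0.043). FT was lower in replicate 1 (0.019) and higher in replicate 2 (0.047). Neither gene passed in replicate 3.

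**Figure D4:**
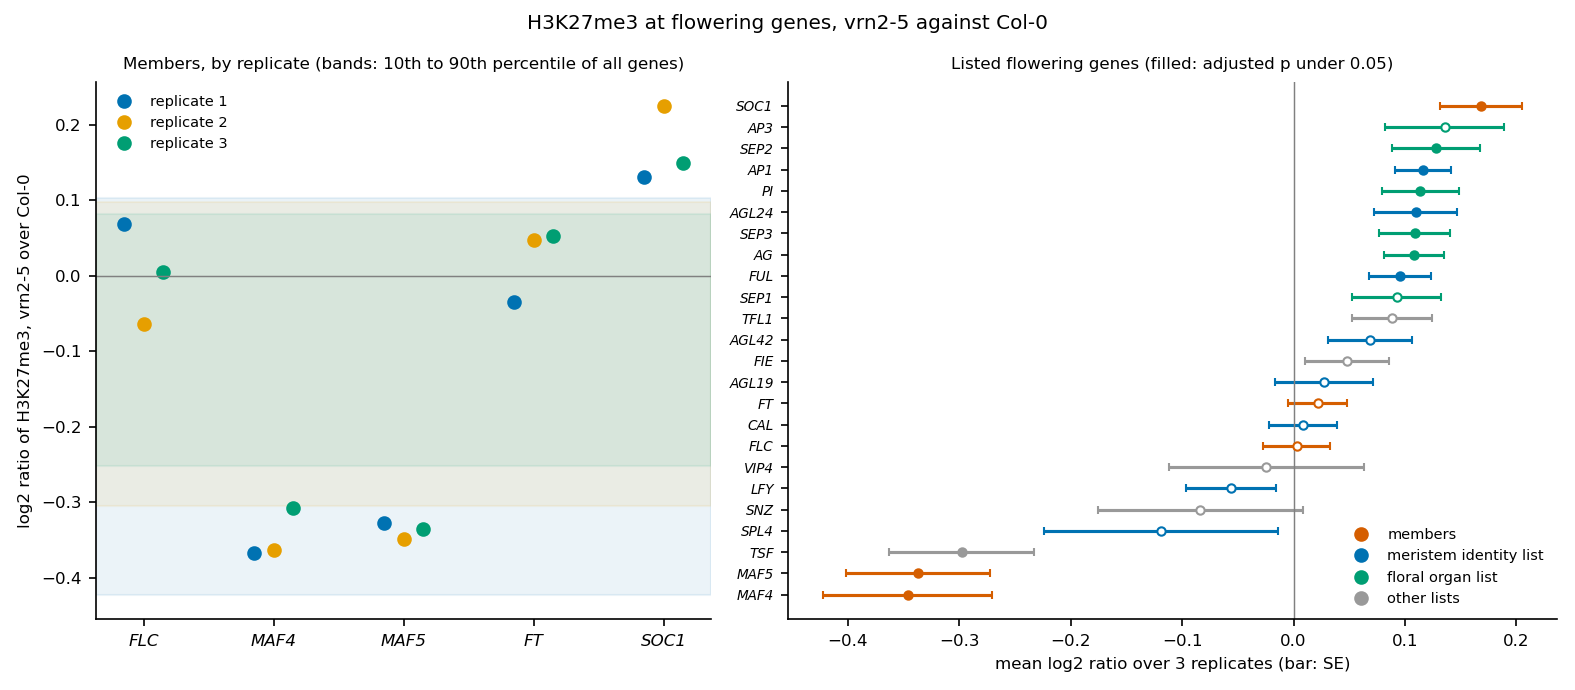
Left, log2 ratio of H3K27me3, vrn2-5 over Col-0 (y axis), at the 5 marked genes, 1 point for each replicate, over bands for the 10th to 90th percentile of all 4626 genes in each replicate. Right, mean log2 ratio (x axis) with its standard error for all listed flowering genes with a region in all replicates, filled where the adjusted p passed: MAF4, MAF5 and TSF lie near -0.3, and SOC1 heads a group of floral genes near 0.1.

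Beside these ratios, no transcript of the same genes passed its test in vrn2-5 against Col-0. In seedlings MAF4 differed by -0.91 (SE 0.68) and SOC1 by -0.44 (SE 0.36) between vrn2-5 and Col-0, and MAF5 was too low to test. Leaving out 1 library at a time, MAF4 ranged from -1.81 without vrn2-5 replicate 1 to -0.15 without vrn2-5 replicate 2, which held 0 reads of it, and SOC1 from -0.78 without vrn2-5 replicate 3 to -0.23 without vrn2-5 replicate 2. FLC had a transcript difference of 0.78 (SE 0.24) and a log2 ratio of the mark of 0.00.

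Among the 13 genes of the 5 pathway lists with a region in all tables, 3 were called higher and 1 lower, beside 6.70% and 26.3% of all genes tested. At an unadjusted p under 0.05 stood 38.5% of these 13 genes and 44.4% of all, and centring on the median raised the higher calls over all genes from 310 to 713 of 4626. AP1, a floral meristem identity gene, was at 0.12 (SE 0.03, adjusted p = 0.00198, limma), FUL, a MADS-box relative that acts with SOC1, at 0.10 (SE 0.03, adjusted p = 0.0139, limma) and AGL24, a partner of SOC1 protein, at 0.11 (SE 0.04, adjusted p = 0.0294, limma). TSF, the closest relative of FT, was at -0.30 (SE 0.07, adjusted p = 0.00212, limma), the same direction as MAF4 and MAF5. All 6 floral organ markers had a region in all tables, every ratio was above 1 in each replicate, and 4 (AG, SEP3, PI and SEP2) were called higher, beside 6.70% of all genes, with a median log2 ratio of 0.11 beside -0.07 for all genes. AP1 and TSF were called in 6 of 7 alternative settings, FUL in 5 and AGL24 in 3, and among the floral organ markers AG in 6, SEP3 in 5, PI in 4 and SEP2 in 3.

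With 8 genes, the counts of VRN2-YFP peaks are given beside the background and not read as a result about these genes. Of the 8 genes, 0 had a peak over the gene body or 1 kb upstream in at least 2 of the 3 lists, against 4.0% of 21713 genes, and 3 (FLC, FLM and MAF5) had one in at least 1 list, against 15.6%, each in a single list. At FLC this was a peak of list 1 at 3175194 to 3175429, 4070 bp after the gene start and inside the gene, with a fold over background of 1.82 and a -log10 q of 3.61, both the authors' values. FLM had a peak of list 3 at 28959918 to 28960300 on chromosome 1 with a fold of 2.54, at the end of the gene, and MAF5 one of list 3 at 25998951 to 25999223 on chromosome 5 with a fold of 1.71.

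Some peaks lay just outside the windows. Downstream of FLC, peaks of lists 1 and 2 at 3169647 to 3170063 and 3169822 to 3170310 overlapped each other, 3319 and 3072 bp beyond the gene end, and within the replicate 3 H3K27me3 region that runs on from FLC. Among peaks within 5 kb of the 8 genes, no other site had peaks from more than 1 list. FT had a peak of list 3 971 bp downstream and SOC1 one of list 3 2612 bp downstream, which overlapped the neighbouring gene AT2G45650. Peaks were called by the authors separately in each replicate, and no caller is named for replicate 3.

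**Figure D5:**
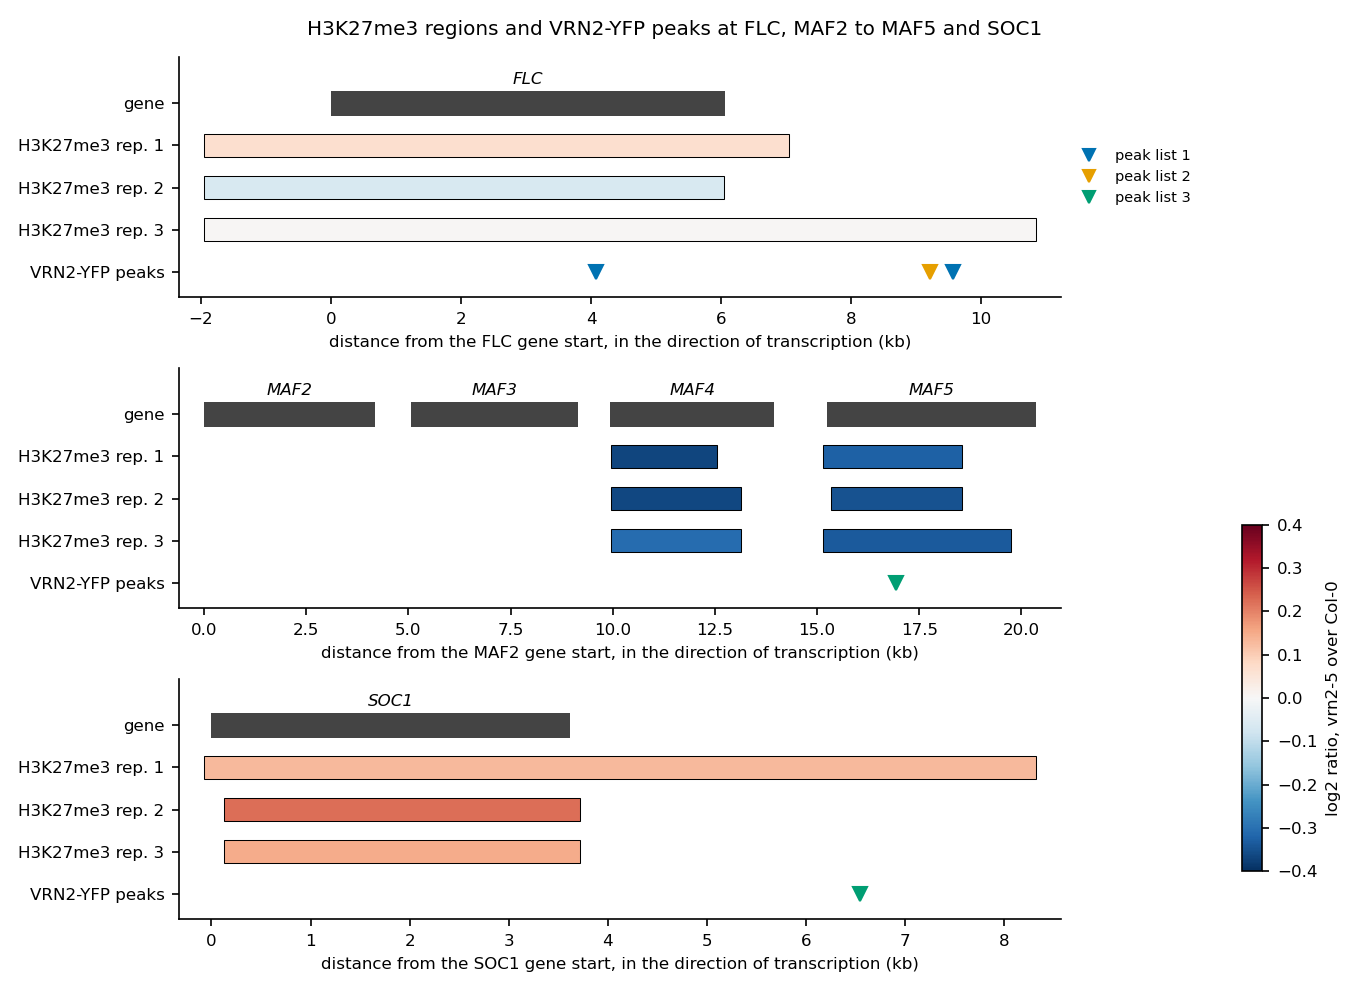
Gene bodies, H3K27me3 regions of the 3 replicates (coloured by log2 ratio, vrn2-5 over Col-0) and VRN2-YFP peak summits (triangles, coloured by list) at FLC, MAF2 to MAF5 and SOC1, against distance from the gene start in kb (x axis, in the direction of transcription). The mark covers FLC and SOC1, and in the cluster MAF4 and MAF5 with ratios below 1 in all replicates but not MAF2 or MAF3.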

How the data were processed

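mRNA of whole seedlings (12 libraries) and rosettes (4 libraries), H3K27me3 and VRN2-YFP chromatin immunoprecipitation of whole seedlings were analysed. The 8 genes and all gene lists were chosen with earlier results of these data known. Per the submitters' processing notes, reads were handled with Bowtie and DESeq2 (RNA), BWA, MACS2, MACS3 and SICER (chromatin) on TAIR10, with no versions; the sources used here do not give the H3K27me3 antibody.

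The deposited seedling table holds a normalized signal, each read count divided by 1 size factor per library; 100% of values gave whole reads at a tolerance of 0.01. Its columns DM and WT were read as vrn2-5 prt6-1 and Col-0. log2(value + 5) of the 16820 genes with a mean of at least 10 was fitted over all 12 libraries by genotype with limma 3.58.1 (trend, Benjamini-Hochberg, threshold 0.05). The deposited rosette counts were tested with edgeR 4.0.16 (quasi-likelihood, TMM, 18561 genes); the FPKM values deposited by the authors were not used for tests, and their log2 fold changes and p-values are quoted as theirs.

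The deposited H3K27me3 tables hold read counts, a normalized signal (reads over 1 constant per library), its ratio A over B and p-values adjusted as false discovery rates, per the file headers. For each gene (body and 1 kb upstream) the log2 ratio of summed signal was tested over the 3 replicates with limma, which pairs libraries by table. The deposited peak lists give a fold over background (a ratio) and a -log10 q-value for each peak; a peak counted from 1 bp of overlap. The alternatives were edgeR and DESeq2 1.42.0 on recovered reads, other filters, pseudocounts and scalings, a replicate block, and leaving out each library. Depth class and replicate 3 as terms were chosen after seeing the data. Counting intervals are exact Poisson at 95% and cover counting error only. The fitting script was tested on simulated data.

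Named are the 8 genes, VRN2, list genes past the threshold (up to 6 a comparison), and the 5 genes most like FLC and SOC1 by Pearson r; REF6, SPL3, TEM2, EFS, AGL24 in seedlings, and the marker genes fall outside this rule and were named after their values were seen.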

Additional observations from a re-analysis of the deposited data

How the results depend on the processing

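None of the 6 genes tested in seedlings was called under any of the 15 or 20 alternatives of a comparison, whereas calls over all genes moved: for vrn2-5 against Col-0 from 4 to between 1 and 23, for prt6-1 from 31 to between 21 and 55, for vrn2-5 prt6-1 from 35 to between 23 and 68 against Col-0 and to between 25 and 64 against vrn2-5, for both backgrounds from 0 to at most 11 and for the interaction from 1 to at most 6. FLC in vrn2-5 against Col-0 ranged from 0.56 to 1.03 (adjusted p of 0.462 to 1). SOC1 in vrn2-5 prt6-1 against Col-0 ranged from -1.29 to -0.90 (adjusted p of 0.108 to 1). In rosettes, leaving out a library called between 0 and 3 of the 8 genes, and between 2 and 11464 genes in all. For H3K27me3, 0 of the 3 calls remained with no replicate block, and separate fits without 1 replicate called 741 to 940 of 4626 genes, against 1528 with all. A VRN2-YFP peak in at least 1 list was held by 3 genes against 0 in at least 2.

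Small differences changed sign. With replicates 1 and 2 only, FLM was 0.22 in vrn2-5 and 0.21 in vrn2-5 prt6-1 against Col-0, the interaction was -0.0226 for MAF2 and 0.0361 for SOC1, and in vrn2-5 prt6-1 against vrn2-5 FLC was -0.11 and MAF3 -0.0253. MAF3 in vrn2-5 against Col-0 was -0.0261 with DESeq2 and -0.0181 with edgeR, and MAF4 over both backgrounds 0.15 and 0.20. With depth class as a term MAF3 was -0.0315 in vrn2-5 prt6-1 against vrn2-5. Leaving out a library, FLM ranged from -0.20 to 0.14 in vrn2-5 and from -0.21 to 0.12 in vrn2-5 prt6-1 against Col-0, and from -0.17 to 0.18 in vrn2-5 prt6-1 against vrn2-5. MAF3 ranged from -0.15 to 0.20, from -0.10 to 0.25 and from -0.0491 to 0.15 in the same order. The interaction ranged from -0.0914 to 0.28 for MAF2 and from -0.41 to 0.25 for SOC1. MAF4 over both backgrounds ranged from -0.66 to 0.16, FLC in vrn2-5 prt6-1 against vrn2-5 from -0.0384 to 0.34, SOC1 in rosettes from -0.15 to 0.0547 and FLC H3K27me3 from -0.0298 to 0.0365. The cause was not tested.

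Deviations of differently numbered seedling libraries correlated at -0.45 to 0.44. Those of same-numbered libraries correlated at 0.288 to 0.560 among the replicate 3 libraries and at -0.216 to 0.260 among those numbered 1 or 2 (0.0465 in rosettes). In vrn2-5 prt6-1 against vrn2-5 alone all 3 pairs were over 0.1, and a block called 38 genes there against 35, none of the 8. With a replicate block, FLC in vrn2-5 against Col-0 was 0.78 (adjusted p = 0.882, limma). Each seedling genotype had every replicate, so the block could not move this estimate. In rosettes a block called 3 genes, none of the 8. Shallow libraries limit FLC, MAF4 and MAF5 to few reads.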
